A study of Mus musculus with 6 samples.

Results

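The genes of glycolysis and of the response to low oxygen were followed in mouse embryonic stem cells after 1 h of cytokine treatment. They were chosen by name as a list of 34 genes, and every array feature annotated with exactly 1 of these symbols was taken. In this way 31 of the 34 genes were found, on 35 features, among 19937 genes with a feature of their own. No feature carried only Gapdh, Gpi1 or Eno1 as its symbol, and the levels of these 3 genes were not analysed here. All 35 features had a mean above the filter on low values.

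All cells, controls included, were C57Bl/6 embryonic stem cells (ESCs) with stable expression of a chimeric receptor named GRgp-Y118F. As background, such chimeras carry the extracellular domain of the receptor for granulocyte colony-stimulating factor (GCSF) on the cytoplasmic domain of gp130. That domain signals to STAT3 when cells see leukaemia inhibitory factor (LIF), and the mutated tyrosine is the one that links it to ERK. There were 2 arrays of untreated control cells, 2 labelled GCSF, and 2 labelled LIF/PD, which stands for LIF plus the MEK inhibitor PD0325901 at 1 uM; MEK is the kinase that activates ERK. Treatment lasted 1 h and followed 6 h of starvation without serum. Whether the untreated controls were starved was not found in the sources used here. The labels name neither clones nor separate cultures, so the p-values rest on a spread that may be technical only.

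Glycolysis splits glucose into pyruvate. Hexokinases trap glucose in the cell as a phosphate, phosphofructokinase sets the pace, and lactate dehydrogenase turns pyruvate into lactate. When oxygen is low, prolyl hydroxylases of the Egln family stop marking the factor HIF-1alpha for destruction, and it then binds short elements with the core ACGTG near glycolytic and other genes. ESCs in serum with LIF are known for a high rate of glycolysis.

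The stem cell identity of the arrays was checked with 10 marker genes (Pou5f1, Sox2, Nanog and others), all of which passed the filter on low values, with a mean log2 intensity of 11.54 to 11.58 over 11 features on the 6 arrays. Of the feeder fibroblast markers 9 of 10 genes passed, with a mean of 9.84 to 9.86 that overlapped between the groups. Of the primitive endoderm markers 6 of 9 genes passed the filter, with means of 8.16 and 8.17 in the controls, 8.25 on both arrays labelled GCSF and 8.20 on both labelled LIF/PD. With GCSF 4 markers rose (limma, adjusted p under 0.05): Tdgf1 by 0.30 ± 0.03 and Fgf4 by 0.29 ± 0.03 of the stem cell list, Col3a1 by 0.29 ± 0.05 of the fibroblast list, a call lost under 13 of 18 alternative settings, and Lama1 by 0.43 ± 0.05 of the endoderm list. No marker was called lower, but 5 of 11 stem cell, 5 of 9 fibroblast and 2 of 6 endoderm features lay below 0 with GCSF, among them Utf1 (-0.16 ± 0.03, adjusted p = 0.0527). In RNA of whole cultures fewer cells of a type and less RNA per cell cannot be told apart. The ERK feedback genes went against the labels: Dusp6 fell by 1.56 ± 0.04 (log2 difference ± SE, here and below, n = 2 arrays per group) in the arrays labelled GCSF and lay 0.03 ± 0.04 from control in those labelled LIF/PD, where the inhibitor is named, and Spry4 fell by 1.83 ± 0.06 and lay at 0.05 ± 0.06. The groups are kept as labelled, and "with GCSF" and "with LIF/PD" below mean the arrays labelled so.

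The promoters of 4 genes are shown first, to set the HIF core beside genes that did and did not differ. The 250 bases before the start of transcription are given 5′ to 3′ on the gene's strand, from RefSeq on GRCm38.p6. ACGTG (or its reverse complement CACGT) and the STAT site TTCNNNGAA are in capitals. Hk2 had the largest difference of the list with GCSF and Bnip3 the next. Ldha, whose differences were under 0.1, has the window with the most copies of the core. Aldoc (0.17 with GCSF) has the STAT-type letters in the window printed, as has a window of Pfkm (-0.004 with GCSF) that is not shown.
Hk2 (chr6:82774455-82774704, minus strand): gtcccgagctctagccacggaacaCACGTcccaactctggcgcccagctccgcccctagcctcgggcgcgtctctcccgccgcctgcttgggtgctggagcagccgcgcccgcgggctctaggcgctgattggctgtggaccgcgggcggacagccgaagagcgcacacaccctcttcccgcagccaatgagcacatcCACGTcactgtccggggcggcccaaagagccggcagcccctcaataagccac
Bnip3 (chr7:138909507-138909756, minus strand): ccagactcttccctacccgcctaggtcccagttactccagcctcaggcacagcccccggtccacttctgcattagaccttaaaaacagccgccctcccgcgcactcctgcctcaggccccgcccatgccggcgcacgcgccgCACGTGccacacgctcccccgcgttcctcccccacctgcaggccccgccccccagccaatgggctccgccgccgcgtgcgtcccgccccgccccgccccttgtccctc
Ldha (chr7:46845554-46845803, plus strand): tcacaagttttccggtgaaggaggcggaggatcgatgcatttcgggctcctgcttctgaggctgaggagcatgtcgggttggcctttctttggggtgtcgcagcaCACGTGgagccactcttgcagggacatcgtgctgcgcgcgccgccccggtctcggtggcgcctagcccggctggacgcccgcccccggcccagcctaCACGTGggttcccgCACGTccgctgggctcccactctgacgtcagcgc
Aldoc (chr11:78323948-78324197, plus strand): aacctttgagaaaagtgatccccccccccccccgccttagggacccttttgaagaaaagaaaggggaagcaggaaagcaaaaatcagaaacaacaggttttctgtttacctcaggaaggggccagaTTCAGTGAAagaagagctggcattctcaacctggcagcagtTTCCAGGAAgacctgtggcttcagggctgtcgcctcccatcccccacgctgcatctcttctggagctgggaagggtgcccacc

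Slc2a3, Ndrg1 and Bnip3l had no RefSeq window. The other 31 of the 34 genes, with Gapdh, Gpi1 and Eno1 among them, had 47 windows of 300 bases (250 before and 50 after a start). The core ACGTG, searched on both strands, was found in at least 1 window of 23 of these genes and in 27 of the 47 windows (57.4%), against 19.6% of all 32851 windows and 21.6% of the 19176 windows of genes on the array. GCGTG stood in 55.3% of the list's windows, against 32.4% of all and 40.9% of those of genes on the array. The list was assembled from known glycolytic and HIF-regulated genes, so these shares are no independent evidence about it. Its windows also held more CG pairs (median 21, against 7 in all windows and 15 in those of genes on the array), and the part of this in the shares was not tested. CACGTG, which contains ACGTG on both strands and so counts as 2 copies of it, stood in 5 genes. That is 10.6% of the list's windows, against 7.15% of all and 8.24% of those of genes on the array. TTCNNNGAA stood in windows of only 2 genes, Aldoc and Pfkm, or 4.26% of the list's windows, against 8.3% of all and 7.66% of those of genes on the array. The 2 copies of the core in Hk2 begin 226 and 52 bases before the start. These letters are a description of the windows and no evidence of binding.

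Hk2, the gene of the hexokinase isoform that growth factors and HIF are known to induce, was the 1 gene of the list that rose. Its log2 intensity was 9.28 and 9.15 on the control arrays, 9.67 and 9.72 on the arrays labelled GCSF, and 9.49 and 9.52 on those labelled LIF/PD. Both GCSF arrays lay above both LIF/PD arrays, which lay above both controls, so no groups overlapped. With GCSF the rise was 1.39-fold (0.47 ± 0.05, 95% interval 0.35 to 0.59, adjusted p = 0.00325 with limma). Counted from the largest rise downward, Hk2 stood at position 80 of 16912 tested features. With LIF/PD the difference was 0.29 ± 0.05 (0.17 to 0.41) and did not pass (adjusted p = 0.230, unadjusted p = 5.44e-04). The direct comparison of LIF/PD with GCSF gave -0.19 ± 0.05 (-0.31 to -0.07, adjusted p = 0.189), so the 2 treatments were not shown to differ. The mean of the primitive endoderm markers had the same order of groups, but of its 6 tested features only Lama1 was called with GCSF (0.43), and the other 5 lay between -0.01 and 0.06. Their part in the Hk2 result was not tested.

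**Figure D1:**
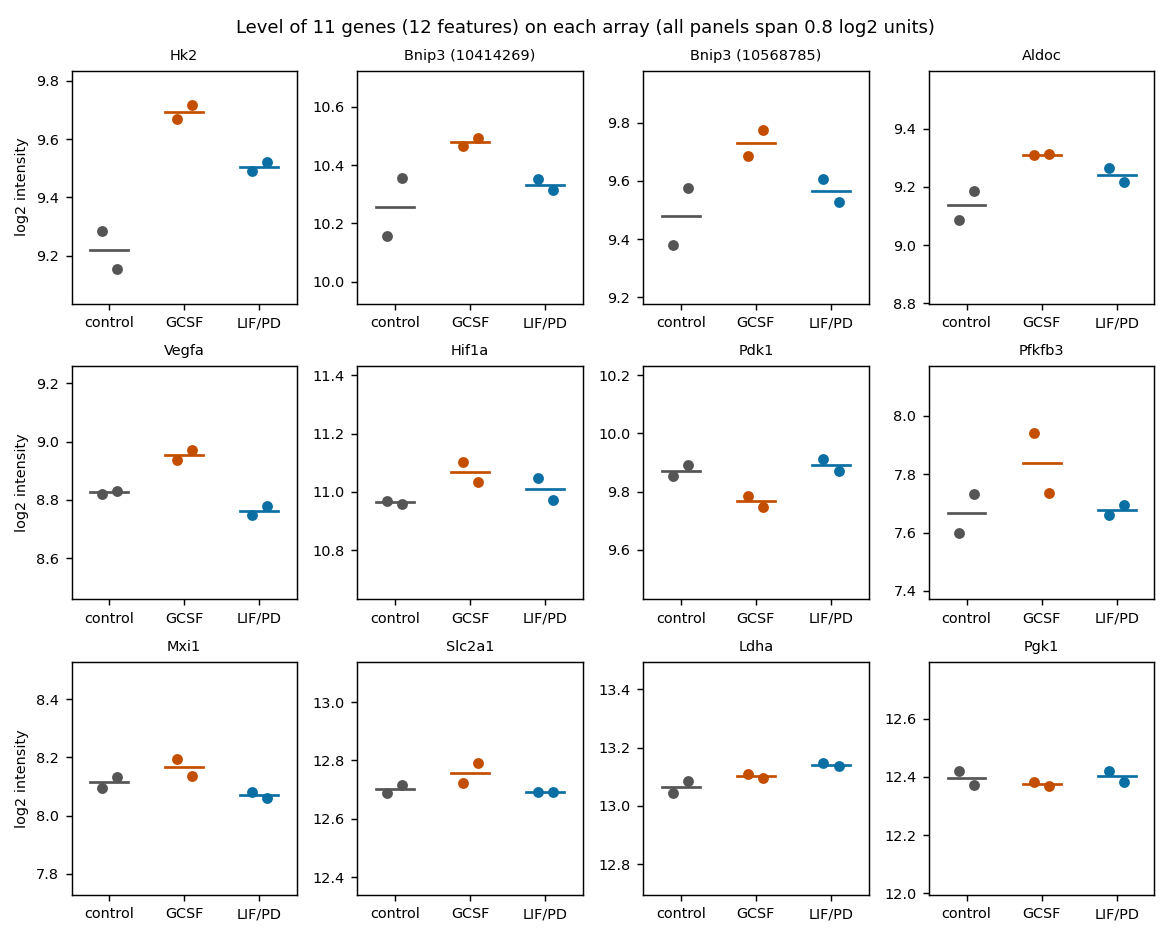
Log2 intensity (vertical axis, each panel spanning 0.8 log2 units) of 12 features of 11 genes on the 6 arrays, by group on the horizontal axis; points are arrays and short lines are group means. Hk2 lies highest on the GCSF arrays (9.67 and 9.72) and lowest in the controls (9.28 and 9.15). Pgk1, Ldha and Slc2a1 each vary by about 0.1 or less over the 6 arrays.

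The other hexokinase gene of the list, Hk1, which encodes the broadly expressed isoform, had 2 features. The feature annotated through RefSeq transcripts read 8.25 and 8.23 in control, 8.27 and 8.33 with GCSF and 8.46 and 8.32 with LIF/PD. It differed from control by 0.06 ± 0.06 with GCSF and by 0.15 ± 0.06 with LIF/PD (adjusted p = 0.779 and 0.751). The 95% interval for GCSF, -0.09 to 0.20, lies below that of Hk2, although the difference between the 2 genes was not itself tested. The other feature, which the annotation ties to Hk1 through 1 sequence record, differed by -0.01 ± 0.06 and 0.00 ± 0.06. Its level was far higher, at 13.08 and 12.90 in control, 13.05 and 12.91 with GCSF and 13.02 and 12.94 with LIF/PD. Whether it measures Hk1 was not tested. Features that name Hk1 together with Rpl17 were left out, as they carry more than 1 symbol.

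Over the whole list, 1 of 35 features was higher and 0 lower with GCSF at an adjusted p under 0.05 (limma), where 0.804% of all 16912 tested features were higher and 0.367% lower, 1.17% together. At an unadjusted p under 0.05 there were 6 higher and 2 lower, where 7.04% and 5.07% of all were, 12.1% together. With LIF/PD 0 features were called in either direction, where 0.0591% of all were higher and 0.00591% lower, 0.065% together. At an unadjusted p under 0.05 there were 4 higher and 0 lower, where 4.7% and 1.89% of all were, 6.59% together. Between LIF/PD and GCSF 0 were called, where 0.402% of all were higher with LIF/PD and 0.443% lower, 0.846% together. There 1 was higher and 4 lower at an unadjusted p under 0.05, where 6.96% and 4.83% of all were, 11.8% together. The single call is a result about Hk2, and nothing is read from it about the list.

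The groups did not overlap for 19 of 35 features with GCSF (41.8% of all features), 16 of them higher (23.7%) and 3 lower (18.2%). With LIF/PD this held for 13 of 35 (38.4%), 10 higher (24%) and 3 lower (14.4%), and between LIF/PD and GCSF for 17 of 35 (41.5%), 7 higher (22.4%) and 10 lower (19.1%). The median difference of the list was 0.05 with GCSF and 0.02 with LIF/PD, against 0.01 over all features in both, and -0.04 between LIF/PD and GCSF against 0.00. With GCSF 24 of 35 features lay above 0 (53.7% of all features did) and with LIF/PD also 24 (57.9%), but 23 and 17 once each array was centred on its median. Centring also moved the median difference of all features to -0.01 in both comparisons. The share of all features above 0 after centring was not counted, so the 23 and 17 have no share beside them. Between LIF/PD and GCSF 16 lay above 0 (51.9%). Both comparisons with control share the 2 control arrays.

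The intervals bound how large a change these arrays leave room for. With GCSF the 95% interval lay wholly within a 1.2-fold change (0.26 log2) for 27 of 35 features, where this held for 74.4% of all features. It lay within 1.5-fold for 34 (98.7% of all), Hk2 being the exception. With LIF/PD the interval lay within 1.2-fold for 33 of 35 (77.6% of all), the exceptions being Hk2 and 1 feature of Hk1. Within 1.5-fold it lay for all 35 (99.2% of all). Replicate arrays differed by a median of 0.04 in control, 0.06 with GCSF and 0.05 with LIF/PD over the list's features. The widest gap, 0.21, was that of Pfkfb3 between the GCSF arrays.

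**Figure D2:**
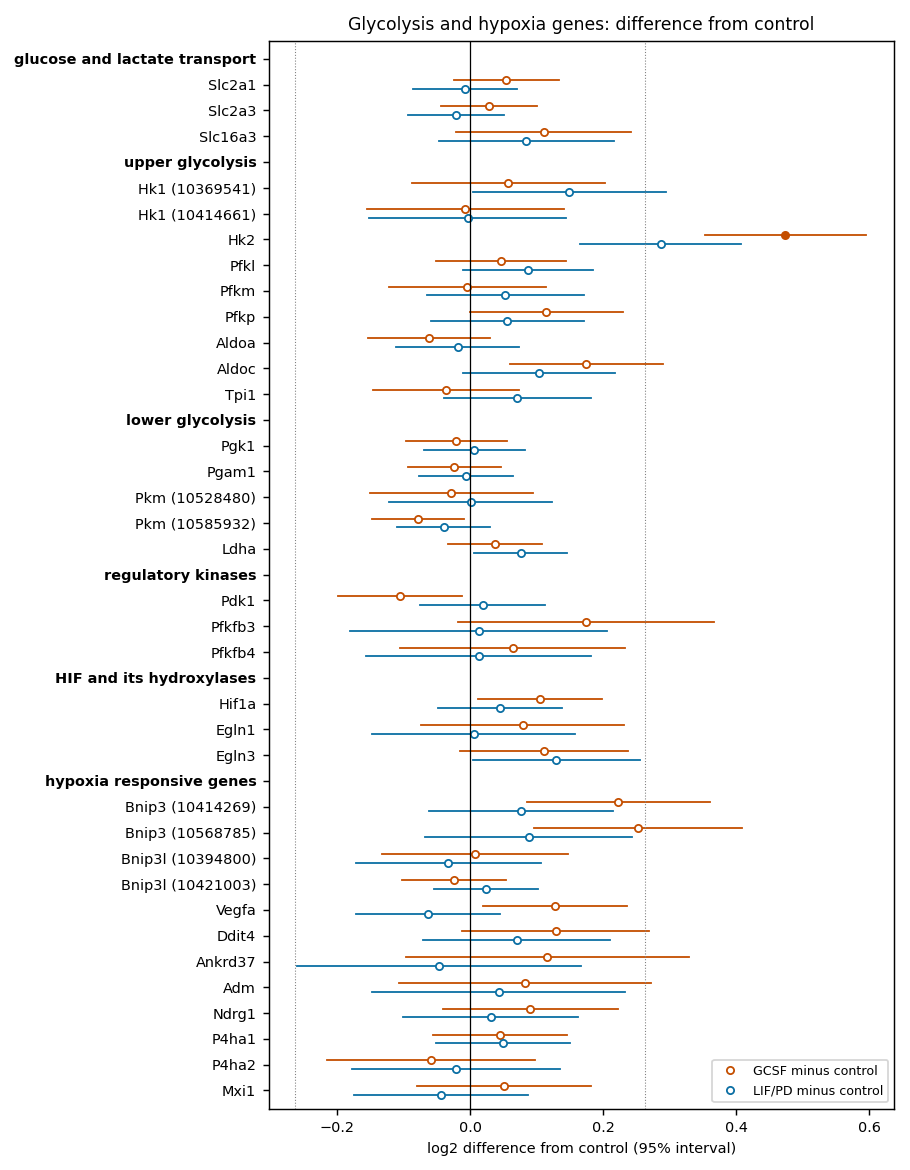
Log2 difference from control (horizontal axis) with its 95% interval for the 35 features, by role, for GCSF (orange) and LIF/PD (blue); a filled point is a difference with an adjusted p under 0.05 and the dotted lines mark a 1.2-fold change. Hk2 with GCSF (0.47) is the only filled point, and the intervals of 27 features with GCSF and 33 with LIF/PD lie between the dotted lines.

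Glucose enters ESCs mainly through the carriers encoded by Slc2a1 and Slc2a3, and Slc16a3 encodes a carrier that exports lactate. None of the 3 was called. Slc2a1 read 12.69 and 12.71 in control, 12.72 and 12.79 with GCSF and 12.69 on both LIF/PD arrays, a difference of 0.05 ± 0.03 and -0.01 ± 0.03. The level of Slc2a3 varied by 0.06 over all 6 arrays, with differences of 0.03 ± 0.03 and -0.02 ± 0.03. Slc16a3 lay at 0.11 ± 0.06 with GCSF, where its replicates were 0.17 apart, and at 0.08 ± 0.06 with LIF/PD. A 1.2-fold change of any of these carriers lay outside the 95% interval.

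Below hexokinase, none of the 3 phosphofructokinase subunit genes was called. Pfkp, the platelet-type subunit gene, lay at 0.11 ± 0.05 with GCSF (adjusted p = 0.413), Pfkl at 0.05 ± 0.04 and Pfkm at 0.00 ± 0.05. With LIF/PD the values were 0.06, 0.09 and 0.05. The aldolase gene Aldoc, which is typical of brain, read 9.09 and 9.19 in control, 9.31 on both GCSF arrays and 9.26 and 9.22 with LIF/PD. Its groups did not overlap, but neither the GCSF difference (0.17 ± 0.05, adjusted p = 0.204) nor that of LIF/PD (0.10 ± 0.05, adjusted p = 0.778) passed. Aldoa, the main aldolase gene, lay at -0.06 ± 0.04 and -0.02 ± 0.04, and Tpi1, which encodes triosephosphate isomerase, at -0.04 ± 0.05 and 0.07 ± 0.05.

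None of the 5 features of the lower, energy-yielding part of the pathway was called. The level of Pgk1 (phosphoglycerate kinase) varied by 0.05 over all 6 arrays and that of Pgam1 (phosphoglycerate mutase) by 0.04. Their differences were -0.02 ± 0.03 and -0.02 ± 0.03 with GCSF and 0.01 ± 0.03 and -0.01 ± 0.03 with LIF/PD. Pkm, which encodes pyruvate kinase, read 12.34 and 12.33 in control, 12.24 and 12.27 with GCSF and 12.29 and 12.30 with LIF/PD on 1 feature. That is -0.08 ± 0.03 with GCSF (adjusted p = 0.356), with no overlap between groups, and its other feature lay at -0.03 ± 0.05. Ldha, the gene of the lactate-forming subunit of lactate dehydrogenase, read 13.04 and 13.09 in control, 13.11 and 13.10 with GCSF and 13.15 and 13.14 with LIF/PD. It differed by 0.04 ± 0.03 and 0.08 ± 0.03, and neither passed (adjusted p = 0.680 and 0.736). Pgk1, Pgam1, Pkm, Ldha, Aldoa and Tpi1 have many near-identical processed copies in the mouse genome, so their features may also detect other transcripts.

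Pdk1 encodes a kinase that inhibits pyruvate dehydrogenase. It read 9.85 and 9.89 in control, 9.78 and 9.75 with GCSF, and 9.91 and 9.87 with LIF/PD. The GCSF arrays were the lowest 2 of the 6, at -0.11 ± 0.04 from control (adjusted p = 0.358) and with LIF/PD 0.12 ± 0.04 above GCSF (adjusted p = 0.273). Neither passed. Pfkfb3 and Pfkfb4, the genes of 2 enzymes that make the activator of phosphofructokinase, lay at 0.17 ± 0.08 and 0.06 ± 0.07 with GCSF and at 0.01 ± 0.08 and 0.01 ± 0.07 with LIF/PD. Pfkfb3 rests on 1 high array: it read 7.94 and 7.74 with GCSF and 7.60 and 7.73 in control.

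Among the oxygen-sensing genes, Hif1a read 10.97 and 10.96 in control, 11.10 and 11.03 with GCSF, and 11.05 and 10.97 with LIF/PD. All 4 treated arrays lay above the controls, the lower LIF/PD array only barely (10.972 against 10.969). The differences were 0.11 ± 0.04 with GCSF (adjusted p = 0.356) and 0.05 ± 0.04 with LIF/PD (adjusted p = 0.889), and neither passed. Hif1a is regulated mainly through the stability of its protein, which arrays do not measure. Egln3, a hydroxylase gene that is itself a HIF target, lay at 0.11 ± 0.055 with GCSF and at 0.13 ± 0.055 with LIF/PD, again without overlap with control and without a call. Egln1, the gene of the main oxygen-sensing hydroxylase, lay at 0.08 ± 0.07 and 0.01 ± 0.07.

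None of the 12 features of the 10 hypoxia-responsive genes was called. Bnip3, whose protein marks mitochondria for removal, had the largest differences with GCSF after Hk2. Its 2 features read 10.16 and 10.35, and 9.38 and 9.58, in control. With GCSF they read 10.47 and 10.49, and 9.68 and 9.78. With LIF/PD they read 10.35 and 10.31, and 9.60 and 9.53, near the higher control value. The GCSF differences were 0.22 ± 0.06 and 0.25 ± 0.07 (adjusted p = 0.171 and 0.170), and those of LIF/PD 0.08 ± 0.06 and 0.09 ± 0.07. The 2 control arrays were 0.20 and 0.19 apart, and without control replicate 2 the first feature passed with GCSF (0.32, adjusted p = 0.0497) while the second did not. Both features share the same annotated transcripts and are no independent evidence. The related gene Bnip3l lay at 0.01 ± 0.06 and -0.02 ± 0.03 with GCSF on its 2 features and at -0.03 ± 0.06 and 0.02 ± 0.03 with LIF/PD.

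Vegfa, the gene of the vascular growth factor, had its groups on opposite sides of control. It read 8.82 and 8.83 in control, 8.94 and 8.97 with GCSF, and 8.75 and 8.78 with LIF/PD. Against control the differences were 0.13 ± 0.05 and -0.06 ± 0.05 (adjusted p = 0.335 and 0.849), and LIF/PD lay -0.19 ± 0.05 from GCSF (adjusted p = 0.145, unadjusted p = 0.00339). No call was made in any comparison. Mxi1, which encodes a MAX partner that opposes MYC, had the same order at smaller size, 0.05 ± 0.06 and -0.04 ± 0.06. Such opposite placement was seen for 2 of the 35 features and for 4% of all tested features.

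Of the remaining hypoxia-responsive genes, Ddit4, which encodes an inhibitor of mTORC1, read 8.26 and 8.24 in control, 8.39 and 8.37 with GCSF and 8.26 and 8.39 with LIF/PD. The GCSF arrays lay above the controls by 0.13 ± 0.06 (adjusted p = 0.457), while the LIF/PD arrays overlapped them at 0.07 ± 0.06. Ankrd37, an ankyrin repeat gene, lay at 0.12 ± 0.09 and -0.05 ± 0.09, with the widest error of the list. The values with GCSF were 0.08 ± 0.08 for Adm (adrenomedullin, a vasodilator peptide), 0.09 ± 0.06 for Ndrg1, 0.04 ± 0.04 for P4ha1 and -0.06 ± 0.07 for P4ha2. The last 2 encode collagen prolyl hydroxylase subunits. With LIF/PD they were 0.04, 0.03, 0.05 and -0.02.

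Other genes of these pathways, from lists beside the 34 genes, gave 4 calls against control. Of 18 tested glucose and energy sensing features, the MYC family genes Mycn and Myc were called in opposite directions with GCSF. Of all features 0.804% were called higher and 0.367% lower with GCSF. MYC proteins are activators of glycolytic genes. Mycn rose from 10.43 and 10.52 to 10.86 and 10.91 (0.41 ± 0.04, adjusted p = 0.00220), and lay at 10.75 and 10.80 with LIF/PD (0.30 ± 0.04, adjusted p = 0.0922). Myc fell from 10.54 and 10.64 to 9.80 and 9.84 (-0.77 ± 0.04, adjusted p = 9.43e-05), and with LIF/PD read 10.68 and 10.69 (0.09 ± 0.04, adjusted p = 0.778). Between LIF/PD and GCSF Myc was higher with LIF/PD (0.86 ± 0.04, adjusted p = 7.32e-05).

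Among 29 tested features of other hypoxia-responsive genes 2 were higher with GCSF and 0 lower, where 0.804% and 0.367% of all features were. With LIF/PD 0 were called, where 0.065% of all were. Bhlhe40, the gene of a circadian repressor, rose by 0.32 ± 0.06 (adjusted p = 0.0449), a call lost under 14 of 18 alternative settings. Tfrc, the transferrin receptor gene, rose by 0.24 ± 0.03 (adjusted p = 0.0142), lost under 5 of 18. Mif, which encodes a cytokine with tautomerase activity, lay at -0.16, -0.18 and -0.14 with GCSF on its 3 features, none of which passed, and 1 feature was higher with LIF/PD than with GCSF (0.19 ± 0.03, adjusted p = 0.0354, lost under 11 of 18). The median of this list was -0.02 with GCSF and 0.03 with LIF/PD, against 0.01 over all features in both.

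No feature was called with limma among 16 tested of other glycolysis and lactate genes, 11 of pyruvate entry, 7 of the pentose phosphate pathway and 11 of other oxygen-sensing genes, in any comparison. With GCSF the unadjusted p was under 0.05 for 3, 3, 1 and 1 of them, where 12.1% of all features were. With LIF/PD it was for 1, 1, 0 and 0 (6.59% of all), and between the treatments for 3, 3, 2 and 1 (11.8%). The smallest p-values belonged to Pdk4, the starvation-induced pyruvate dehydrogenase kinase gene (-0.23 ± 0.05 with GCSF, 0.00 ± 0.05 with LIF/PD), and Pgls, a pentose phosphate gene (-0.23 ± 0.07 and 0.07 ± 0.07). Further low p-values were those of Pgm2 (-0.02 and 0.13), Dld (0.18 and 0.07), Pdp1 (-0.16 and 0.00), Pfkfb2 (0.21 and 0.04) and the lactate carrier gene Slc16a1 (0.13 and 0.05). Tkt and Taldo1 of the pentose phosphate pathway lay at -0.09 and -0.07 with GCSF and at 0.00 and 0.08 with LIF/PD. Of the oxygen-sensing genes, the HIF partner genes Arnt and Arnt2 lay at 0.03 and -0.05 with GCSF and at -0.05 and -0.13 with LIF/PD, and Cited2, a competitor of HIF for its coactivator, at -0.10 and 0.03.

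**Figure D3:**
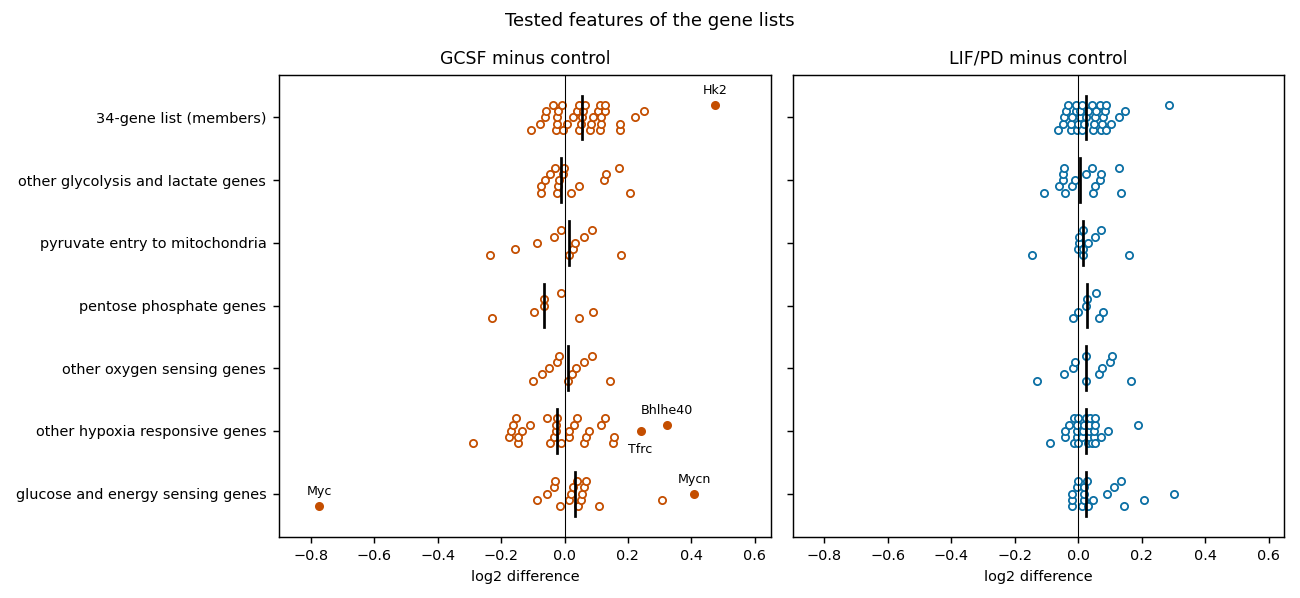
Log2 difference from control (horizontal axis) of each tested feature of the 34-gene list and 6 further lists, with GCSF on the left and LIF/PD on the right; filled, named points have an adjusted p under 0.05 and black bars are medians. With GCSF Hk2, Mycn, Bhlhe40 and Tfrc are filled above 0 and Myc below 0, and with LIF/PD no point is filled.

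Hk2 kept its call with GCSF under all 18 alternative settings, which include leaving out each of the 6 arrays, with differences between 0.41 and 0.54 and adjusted p between 0.000196 and 0.0323 (limma). With LIF/PD it lay between 0.22 and 0.35 and was not called under any of them (adjusted p between 0.0578 and 0.999).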

How the data were processed

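Total RNA of 6 samples (3 groups of 2) was measured with a biotin label on 1-colour arrays, per the labels. The authors deposited 34760 features by 6 arrays. The values the authors deposited run from 2.29 to 14.50 and are taken here to be log2 intensity. Their log base, background correction and normalization were not found in the sources used here. Features were named through the platform's annotation (21640 with 1 symbol, 1321 with several). The 6573 features below the first annotated identifier were left out as a control block. Tested were 16912 features (mean log2 of 6.70 or more, the 40th percentile) with limma 3.58.1 in R 4.3.3: 1 mean per group over all 6 arrays, moderated variances with an intensity trend (8.4 total degrees of freedom), two-sided p and Benjamini-Hochberg adjustment over all tested features. The fit was also run on simulated data with independent errors scaled to the replicate spread. Such data cannot show that the p-values hold for separate cultures.

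The genes and lists were chosen with earlier results of these data known. Named were all genes of the 34-gene list with a feature, every gene of the other lists with a call, otherwise the 3 smallest p per list, and 6 genes that check the labels. Promoters came from RefSeq (GRCm38.p6).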

Additional observations from a re-analysis of the deposited data

Results flagged for a closer look

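Differences between the arrays labelled LIF/PD and GCSF drew attention for these genes. Vegfa (-0.19) and Mxi1 (-0.09, LIF/PD minus GCSF in log2 here and below) had the arrays of the 2 treated groups on opposite sides of both controls, although neither difference passed with limma (adjusted p = 0.145 and 0.580). Of the pathway lists, Myc (0.86) and Mif (0.19) were higher with LIF/PD than with GCSF. Of the genes that check the labels, Spry4 (1.88), Dusp6 (1.59) and Egr1 (1.31) were higher and Bcl3 (-0.80), 1 feature of Socs3 (-0.51) and Stat3 (-0.37) lower. The other Socs3 feature lay at -0.12 and did not pass (adjusted p = 0.630). The Socs3 call was lost under 3 of 16 alternatives and that of Stat3 under 5 of 18. Against control the Socs3 feature of that call was higher by 3.13 with GCSF and by 2.62 with LIF/PD. Bcl3 was higher by 1.35 and 0.55, and all 4 differences passed, the last lost under 5 of 18 alternatives. Stat3 lay at 0.61 and 0.24 from control, the other Socs3 feature at 0.51 and 0.39, and Egr1 at -1.49 and -0.18. Of these only the differences with GCSF passed, that of Socs3 lost under 7 of 17 alternatives. These 17 include the settings with 1 value per gene, which give the mean of the Socs3 features or the other feature. Of the cell type markers, Utf1 (0.23) was higher and Lama1 (-0.34) and Tdgf1 (-0.17) lower, calls lost under 5, 9 and 12 of 18 alternatives.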

How the results depend on the processing

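For each comparison 18 alternatives were run. The number of the list's features called with GCSF was 1 under all of them except without control replicate 2, where it was 2 (Hk2 and 1 feature of Bnip3), so the range with 1 array left out was 1 to 2. With LIF/PD, and between LIF/PD and GCSF, it was 0 under all. With the replicate number as a block the counts were 1, 0 and 0, Hk2 with GCSF had an adjusted p of 0.00667, and calls over all features were 195, 9 and 165. The numbers were not taken to pair the arrays, since deviations of same-numbered arrays correlated at 0.007, 0.084 and 0.099. Of 105 differences of the list's features, 62 kept their sign under all alternatives and 43 uncalled ones changed it under at least 1. For a gene with several features, the settings with 1 value per gene give the features' mean or the feature with the highest mean. They were counted under 1 feature of the gene only, also in the 18 settings of the called Mif feature. Thus 1 Hk1 feature changed sign to -0.007 with GCSF and -0.004 with LIF/PD, the values of the other Hk1 feature.

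Calls over all features moved more. With GCSF the count was 198, 280 or 276 with 1 value per gene, 125 without the intensity trend, 99 with the control block's median as covariate, and 88 to 164 with 1 array left out (88 without control replicate 1, 107 without control replicate 2, 118 without GCSF replicate 1). With LIF/PD it was 11, 24 or 27 with 1 value per gene, and 1 without the trend, without either control array or without either LIF/PD array. Between LIF/PD and GCSF it was 143, 214 or 203 with 1 value per gene, 82 with only those groups, 71 without the trend, 26 with the covariate, and 31 to 91 with 1 array left out, the lowest without LIF/PD replicate 1. Signal over background was not part of the values used here, so no limit of detection can be given.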
